A study of Homo sapiens with 6 samples.

Results

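CLDN7, OCLN, MPP7 and MAL2 encode proteins of the tight junction and of apical-basal polarity in epithelial cells. They were taken from the authors' deposited comparison of HCT116 cells, in which 14 probe sets carry 1 of these 4 names, together with every probe set in the unbroken runs of consecutive identifiers around them. The 4 genes are among 1458 gene symbols listed in that comparison, and their runs hold 46 of the 256161 probe sets used. All 14 named probe sets were chosen by the difference between the groups described here (2-fold or more, with a p-value below 0.01 before any adjustment), and so were the genes themselves. Every value below is therefore a description, without a test. The other 32 probe sets entered through their place in the runs and are those that missed these limits. They were measured on the same 6 arrays as the probe sets that chose the runs. They carry no gene name here and are not known to belong to the gene.

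HCT116 is an established human colon carcinoma line. In the shERRalpha group, a lentivirus delivered a short hairpin RNA (shRNA) against ERRalpha over 48 h of infection. ERRalpha is an orphan nuclear receptor encoded by ESRRA and known for activating genes of energy metabolism. In the shscrambled group the lentivirus carried a scrambled shRNA. Both groups were then kept in puromycin for 48 h and grew in 10% serum without phenol red, and each has 3 arrays of total RNA that the titles call biological replicates. Nothing says whether these came from separate infections, only 1 shRNA against ERRalpha was used, and its other effects cannot be told apart from loss of the receptor. In RNA of whole cultures, fewer cells that express a gene and less RNA per cell cannot be told apart.

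A tight junction seals the space between neighbouring epithelial cells near their apical surface. Claudins such as claudin-7 (CLDN7) polymerise into its strands, and occludin (OCLN), a membrane protein with a MARVEL domain, is built into them. MPP7 is an adapter of the p55 MAGUK family that binds the polarity protein DLG1 and LIN7 proteins and takes part in forming tight junctions. MAL2, another MARVEL-domain protein, is known in hepatocyte-derived cells for carrying proteins across the cell to the apical membrane.

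Values are log2 levels normalised by the authors with RMA, and array medians lay between 4.28 and 4.43. Replicate 1 of shERRalpha was unlike the rest: it correlated with them at 0.867 to 0.877 over all probe sets, whereas the other 5 arrays correlated with each other at 0.933 to 0.947. The listed and run folds of the 4 genes are therefore also given without it. Counts over the probe sets of their runs, and results of other genes, are given with all arrays only. ESRRA was at 2.29, 2.60 and 2.23 log2 units in shERRalpha, against 4.86, 5.10 and 5.28 in shscrambled (median of its 2 listed probe sets), near background in shERRalpha. The log2 change was -2.71 on these 2 probe sets. In the ESRRA run 4 of 6 probe sets were lower, with a run median change of -1.84. The 25th percentile of probe set means, 2.41, serves as the mark of a dim signal. Of 10 colon epithelial markers only CDH1 was listed, lower in shERRalpha, and of 10 HEK293-type and neural markers none was listed. For fibroblast and endothelial markers 4 of 12 were listed (COL3A1 and KDR higher, COL1A2 and COL6A3 lower) and for leukocyte markers 1 of 10 (ITGAM, higher). Each was listed by 1 probe set of a run of 30 to 52, with a run median change between -0.11 and 0.43. Of all 19182 runs of at least 3 probe sets, 7.83% hold a listed probe set in either direction. The marker counts were not tested against that share. Being listed shows a difference between the groups, not whether a marker is expressed. The levels of unlisted markers are not known because their probe sets have no names here. The labelled cell type could therefore not be checked, and the part of other cells in these results was not tested.

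Of the regulators of junction genes, GRHL2 and ELF3 were listed lower and ZEB1 higher. The known binding letters of ZEB1, GRHL2 and ERRalpha were searched for, and those of ELF3 were not. The search covered the 250 bases before the RefSeq starts of CLDN7, OCLN and MPP7 (GRCh38.p14). The table gives 2 starts for each of them, and MAL2 was not searched. The sequences shown are from windows in which a motif was found, CACCTG, the E-box letters bound by ZEB1, read on either strand and printed in capitals. The CLDN7 window that holds it is shown as stretches around the E-boxes, and of the OCLN windows the one before the outer start is shown whole, all 5′ to 3′ on the strand of the gene.
CLDN7, chr17:7262635-7262664, minus strand: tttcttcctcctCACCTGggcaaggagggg
CLDN7, chr17:7262596-7262625, minus strand: cgacttccggttCAGGTGagtgtcccttcg
CLDN7, chr17:7262479-7262508, minus strand: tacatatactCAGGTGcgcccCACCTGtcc
OCLN, chr5:69492297-69492546, plus strand: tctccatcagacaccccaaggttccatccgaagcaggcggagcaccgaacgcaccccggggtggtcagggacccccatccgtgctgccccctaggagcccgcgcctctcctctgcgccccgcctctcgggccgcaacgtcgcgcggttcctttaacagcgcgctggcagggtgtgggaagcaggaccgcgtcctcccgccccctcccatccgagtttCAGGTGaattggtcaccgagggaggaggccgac

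The window before the inner CLDN7 start held 4 E-boxes, beginning 174, 135, 20 and 9 bases before the start. The last stretch shown holds the inner pair, 1 on each strand. Each OCLN window held 1, at 33 bases before the outer start and 133 bases before the inner one. None was found in the outer CLDN7 window or in either MPP7 window. CACCTG occurs in 17.5% of all 35116 windows of this length in the RefSeq table, and 4 or more copies in 0.122%. The ERR response element TNAAGGTCA (in 0.854% of windows) and the GRHL letters AACCGGTT (in 0.117%), whose reverse complement is the same, were in none of the 6 windows. None of these motifs overlapped another, and a match of letters does not show binding. The shares are per window, and 6 windows were searched. Whether ZEB1 acts on these genes was not tested.

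CLDN7 was listed lower in shERRalpha by 1 probe set of a run of 11. That probe set was at 7.05, 7.55 and 6.98 log2 units in shERRalpha and at 8.15, 8.53 and 8.60 in shscrambled. The highest shERRalpha array lay 0.60 below the lowest shscrambled array. The group means were 7.19 ± 0.31 and 8.42 ± 0.24 (SD, n = 3 each), a log2 change of -1.23 (SE 0.23), or 2.35-fold lower in shERRalpha, and 2.23-fold without shERRalpha replicate 1. The authors' deposited table gives a ratio of 0.426 for it.

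All 10 other probe sets of the CLDN7 run were lower in shERRalpha, between -0.21 and -1.60. Of these, 7 did not overlap between the groups. Likewise 7 were at least 2-fold lower and missed listing by their p alone. The 3 with overlap were those at positions 8, 10 and 11 of the run, the last of them dim by its mean over all arrays. The median over the run was 7.05, 6.98 and 6.60 in shERRalpha, against 7.43, 7.68 and 7.71 in shscrambled. The groups stayed apart on this summary, with a log2 change of -0.73 (SE 0.17), 1.66-fold lower and 1.76-fold without shERRalpha replicate 1. The run median is smaller than most probe set changes, whose own median was -1.10. RefSeq lists a pseudogene, CLDN7P1, and places ELP5 so that it overlaps one end of CLDN7, and whether either adds signal was not tested.

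OCLN was also listed by a single probe set, of a run of 9. It was at 3.96, 3.87 and 3.97 in shERRalpha and at 5.03, 5.06 and 5.57 in shscrambled. The 3 shERRalpha arrays lay close together, and all were at least 1.06 below the lowest shscrambled array. The group means were 3.93 ± 0.05 and 5.22 ± 0.31 (SD, n = 3 each), which is 2.44-fold lower in shERRalpha (log2 change -1.29, SE 0.18) and 2.47-fold without replicate 1.

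Of the 8 other OCLN probe sets, 7 were lower in shERRalpha without overlap, with log2 changes between -1.32 and -0.70, and 4 of them at least 2-fold. The first probe set of the run was the exception. It read 5.58, 5.27 and 4.73 in shERRalpha and 5.08, 4.81 and 5.31 in shscrambled, so that the groups were mixed and the change of 0.13 (SE 0.29) turned to -0.07 without shERRalpha replicate 1. The run median was 5.58, 6.24 and 5.46 in shERRalpha, against 6.39, 6.44 and 6.97 in shscrambled. The groups came within 0.15 of each other there, with shERRalpha replicate 2 the highest of its group, and the log2 change was -0.84 (SE 0.31), 1.79-fold lower and 1.68-fold without replicate 1. RefSeq also lists the pseudogene OCLNP1, which resembles part of OCLN, so signal from that copy cannot be told apart here.

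**Figure D1:**
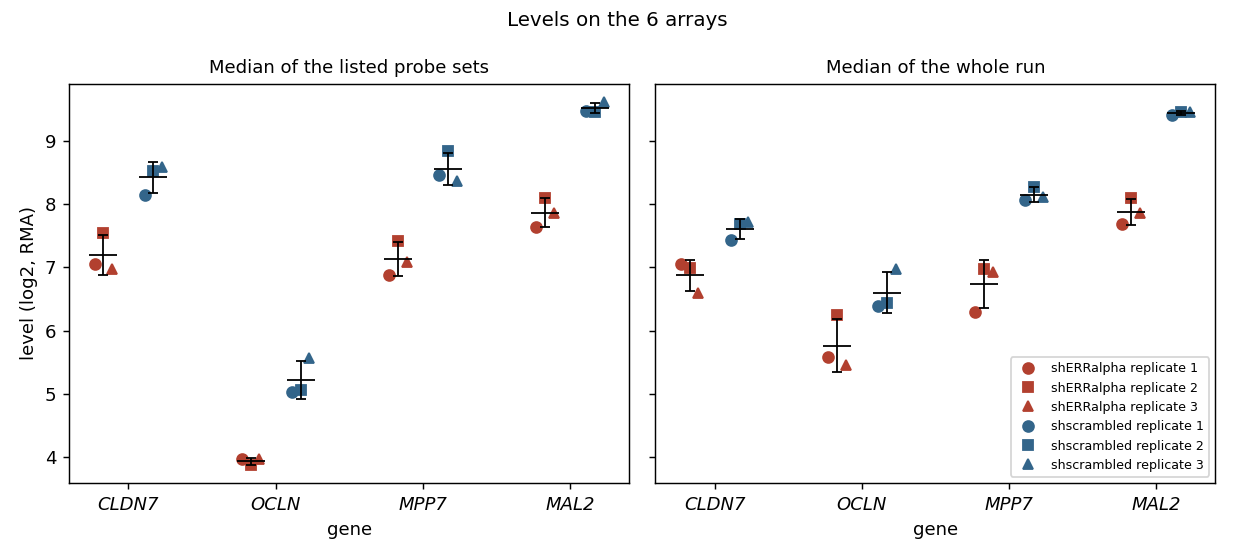
Levels in log2 units on each of the 6 arrays for the 4 genes, as the median of the listed probe sets (left) and of the whole run (right). Symbols give the replicate, shERRalpha stands left of shscrambled, and bars give mean and SD over 3 arrays. The groups are apart for every gene in both panels, most narrowly for the OCLN run (a gap of 0.15) and most widely for the listed MAL2 probe sets (1.37).

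MPP7 had the most listed probe sets of the 4 genes, 8 of a run of 20. Their median was 6.88, 7.42 and 7.09 in shERRalpha and 8.46, 8.85 and 8.37 in shscrambled. Each of the 8 was lower in every shERRalpha array than in any shscrambled array. The group means of the median were 7.13 ± 0.27 and 8.56 ± 0.26 (SD, n = 3 each), 2.69-fold lower in shERRalpha (log2 change -1.43, SE 0.22). Without shERRalpha replicate 1 the fold was 2.47. Single listed probe sets ranged from 2.18-fold to 3.15-fold lower.

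Of the listed MPP7 probe sets, position 10 had the smallest SE and position 11 the largest change. Position 10 was at 9.19, 9.51 and 9.38 in shERRalpha, against 10.71, 10.64 and 10.54 in shscrambled, with replicates close together in both groups. Position 11 was at 6.25, 6.97 and 6.72 in shERRalpha, against 8.15, 8.52 and 8.23 in shscrambled. The first was 2.41-fold lower (log2 change -1.27, SE 0.11) and the second 3.15-fold lower (-1.65, SE 0.24).

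Of the 12 other probe sets of the MPP7 run, 11 were lower in shERRalpha and 10 of them without overlap. The largest changes of the run were among these, -1.92 at position 13, -1.81 at position 8 and -1.67 at position 9, and each owed much to 1 array. At position 8 the levels were 4.54, 6.99 and 7.60 in shERRalpha and 7.98, 8.54 and 8.06 in shscrambled, with shERRalpha replicate 1 far under the rest. Without that array the changes were -1.36, -0.90 and -1.01 at positions 13, 8 and 9. The median of the 12 was 2.69-fold lower with it and 1.92-fold lower without it. Toward the end of the run the probe sets were mixed. Position 17 overlapped between the groups (log2 change -0.50, SE 0.70), position 18 was 2.25-fold lower without overlap, positions 19 and 20 were dim, and position 20 was the only one above 0, at 0.17 (SE 0.15). The median over the whole run was 6.30, 6.98 and 6.93 in shERRalpha and 8.07, 8.28 and 8.12 in shscrambled, 2.67-fold lower (log2 change -1.42, SE 0.23) and 2.30-fold without replicate 1. RefSeq lists the neighbouring gene MPP7-DT within the bounds of MPP7, and its part in the signal was not tested.

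**Figure D2:**
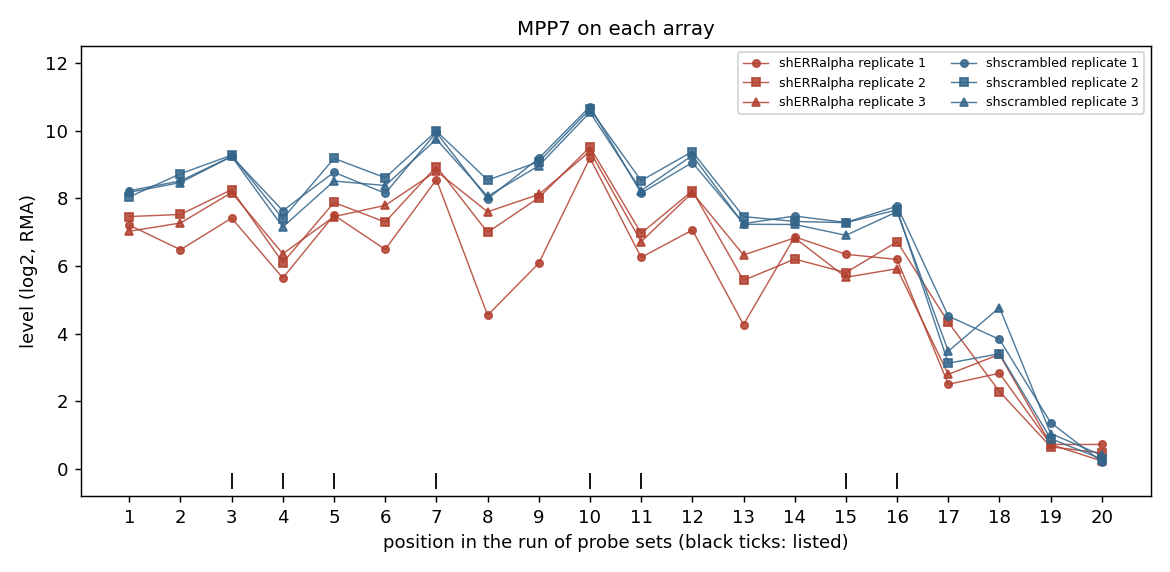
Level in log2 units (vertical axis) of each of the 20 probe sets of the MPP7 run (horizontal axis, in order of identifier) on the 6 arrays. The shERRalpha arrays lie under the shscrambled arrays from position 1 to position 16, and the groups overlap at positions 17 and 20. Replicate 1 of shERRalpha lies farthest under the others of its group at positions 8, 9 and 13. It is also the lowest of its group at positions 2 to 4, 6, 7, 10 to 12 and 17.

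For MAL2, 4 of the 6 probe sets in the run were listed. Their median was 7.64, 8.10 and 7.85 in shERRalpha and 9.48, 9.47 and 9.62 in shscrambled. The gap between the groups, 1.37 log2 units, was the widest of the 4 genes on the listed probe sets. The group means were 7.86 ± 0.23 and 9.52 ± 0.09 (SD, n = 3 each), 3.16-fold lower in shERRalpha (log2 change -1.66, SE 0.14), and 2.92-fold without shERRalpha replicate 1.

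Within MAL2 the run split by position. The listed probe sets, at positions 3 to 6, had log2 changes of -1.69, -1.23, -1.56 and -1.75. The probe sets at positions 1 and 2 had log2 changes of -0.49 and -0.53. Position 1 was at 9.07, 9.48 and 9.31 in shERRalpha, against 9.59, 10.15 and 9.59 in shscrambled, apart by a small gap. Position 2 was at 7.57, 7.15 and 6.52 in shERRalpha, against 7.53, 7.79 and 7.52 in shscrambled, and overlapped. The median over the whole run was 7.68, 8.10 and 7.85 in shERRalpha and 9.41, 9.47 and 9.46 in shscrambled, 2.96-fold lower (log2 change -1.57, SE 0.12) and 2.76-fold without replicate 1. Which exons these positions cover is not known, since the files give no annotation for them.

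**Figure D3:**
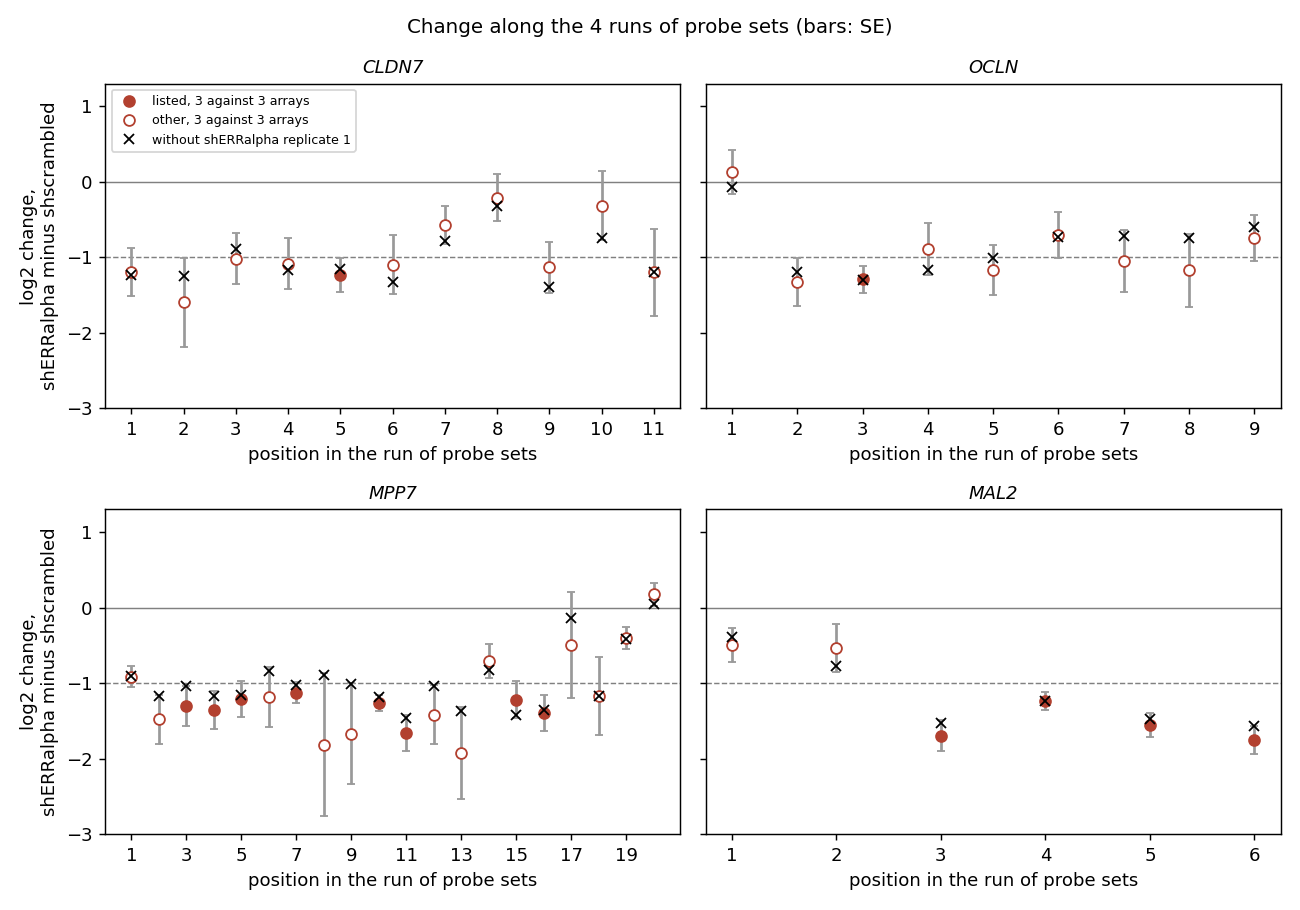
Log2 change, shERRalpha minus shscrambled, of each probe set (vertical axis) by its position in the run (horizontal axis). Filled points are listed probe sets, open points the others, bars the SE over 3 arrays a group, crosses the change without shERRalpha replicate 1, and the dashed line marks 2-fold lower. Of the 46 points 44 lie under 0, the exceptions being position 1 of OCLN and position 20 of MPP7.

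Over all 4 runs, 14 of 46 probe sets were listed, all lower, where 0.557% of all probe sets were listed lower and 0.271% higher. In 39 of 46 every shERRalpha array was under every shscrambled array (8.37% of all probe sets, with 5.69% the other way round), 32 were at least 2-fold lower (6.84%) and 44 were lower by any amount (50.2%). The median log2 change was -1.18 over the 46 and 0.00 over all probe sets. Among the 32 unlisted probe sets alone, 30 were lower, 25 without overlap, 18 at least 2-fold, and the median change was -1.07. All 4 run medians kept the groups apart, as did 10.5% of the 19182 runs of at least 3 probe sets with the shERRalpha arrays lower. Those of MPP7 and MAL2, 2 of 4, were at least 2-fold lower, as were 1.56% of runs. A run median as low as that of MAL2 was found in 31 of these runs, its own included, as low as that of MPP7 in 60, of OCLN in 592 and of CLDN7 in 892. Since the genes were chosen for this difference, these shares support nothing about them. In limma over all probe sets 0 were called at an adjusted p under 0.05 in either direction (0.0%), with 11577 lower and 6962 higher at an unadjusted p under 0.05.

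Of the 32 unlisted probe sets, 18 passed the fold of the rule and missed only its p of 0.01. The nearest of these was position 2 of MPP7, 2.78-fold lower with p = 0.0103 in the deposited comparison's equal-variance test on 3 against 3 arrays, which is no exact test. Just inside was position 3 of MPP7, which the authors' deposited table lists with a ratio of 0.406 at p = 0.00823. Among the probe sets of the 4 runs with a p under 0.01, those nearest to the fold limit were position 7 of MPP7 on the inside, 2.18-fold lower, and position 1 of MPP7 on the outside, 1.88-fold lower. Among shERRalpha arrays the median SD was 0.31 for the listed and 0.53 for the unlisted probe sets, against 0.51 over all probe sets. Among shscrambled arrays it was 0.14 for the listed and 0.25 for the unlisted, against 0.37 over all. A p under 0.01 selects for a small spread. Replicate 1 was the lowest of the 3 shERRalpha arrays at 22 of the 46 probe sets, replicate 3 at 17 and replicate 2 at 7.

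The 4 profiles were set against each other by the root mean square difference over the 6 arrays of the listed medians, each taken relative to its own shscrambled mean. The pairs closest to each other were CLDN7 and MPP7 (0.25 log2 units), MPP7 and MAL2 (0.25) and CLDN7 and OCLN (0.25), and the widest was OCLN and MPP7 (0.36). Among the 118 other genes with at least 3 listed probe sets, the nearest to CLDN7 were FGFR2 (0.12), FAM169A (0.15) and ITGAV (0.15). Nearest to OCLN were LETMD1 (0.10), ADGRV1 (0.12) and HDAC3 (0.15). Nearest to MPP7 were SREBF2 (0.09), the phosphatase gene PTPN13 (0.10) and CCNY (0.12). Nearest to MAL2 were SKIL (0.09), SLC44A1 (0.12) and WDFY1 (0.14). All of these 12 genes were listed lower, so the likeness rests largely on the size of the difference that listed them.

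Other genes of junctions, polarity and apical transport could be described only where the deposited comparison lists them. Of 146 such genes beyond the 4 members, in 8 lists, 16 were listed, 12 lower and 4 higher, and 7 of them rested on 1 probe set. The share of all measured genes that is listed is not known, because unlisted probe sets have no names here. Of the 19182 runs of at least 3 probe sets, a rough stand-in for genes, 7.83% hold a listed probe set in either direction, and the counts of listed genes here and below were not tested against it. The share lower was 65.0% over every gene listed in a single direction. Of 33 tight junction membrane proteins, CLDN7 and OCLN were listed lower and CLDN2, a pore-forming claudin, higher. CLDN2 was at 2.47, 2.54 and 2.39 in shERRalpha, against 1.52, 1.13 and 1.61 in shscrambled, at 1 probe set of 8. Its shscrambled level was dim, and its run had a median change of 0.15. The other claudins of the list were not listed.

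Scaffold and polarity proteins that were listed were all lower, 2 of 17 and 4 of 29. Afadin (AFDN), which links nectins to actin, was 2.36-fold lower at 2 probe sets, with 25 of the 29 probe sets of its run lower and a run median change of -1.17. Paracingulin (CGNL1) was at 2.10 ± 0.21 in shERRalpha and 3.94 ± 0.19 in shscrambled (SD, n = 3 each), with a run median change of -0.93. PRKCI, the atypical protein kinase C of the Par complex, was 3.77-fold lower at 2 probe sets (run -0.80), and its partner PARD6B 2.03-fold lower at 2 of 6 (run -0.48). DLG1, the scaffold that MPP7 binds, was listed by 1 probe set of 27, 2.38-fold lower, with 24 of 27 lower and a run median change of -0.35. The polarity kinase MARK1 was at 2.41 ± 0.46 in shERRalpha and 5.02 ± 0.52 in shscrambled (SD, n = 3 each; run -1.47).

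In the families of the members the listed genes went both ways. In the p55 MAGUK family, MPP7 was listed lower and MPP4 higher, 2 of 8. MPP4 was at 4.43, 4.08 and 5.27 in shERRalpha, against a dim 1.13, 0.69 and 1.32 in shscrambled, at 1 probe set of 21 with a run median change of 0.95. Among 17 MAL and MARVEL proteins, MAL2 and OCLN were listed lower and CMTM3 higher. CMTM3 was 2.60-fold higher over 3 probe sets, and none of the 12 probe sets of its run was lower (run 1.18). Of 23 apical transport genes 3 were listed. RAB25, an epithelial GTPase of recycling endosomes, was 2.74-fold lower at 1 probe set, and all 5 probe sets of its run were lower (run -1.23). The t-SNARE gene STX3, which acts at the apical membrane, was 2.19-fold higher at 2 probe sets (run 0.73). SYTL2 was 5.98-fold lower at 1 probe set, but 12 of the 27 probe sets of its run were lower and the run median change was -0.58.

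Of 14 adherens junction genes, CDH1 (E-cadherin, 4.18-fold), CDH3 (2.09-fold) and PTPRF (4.04-fold) were listed lower, CDH1 and CDH3 with run median changes of -1.77 and -1.06. PTPRF rested on 1 probe set, dim in shERRalpha, with 33 of the 39 probe sets of its run lower and a run median change of -0.20. The desmosomal cadherin DSG3, 1 of 13 desmosome genes, was listed lower by 1 probe set that was dim in both groups (run -0.01). Among 14 epithelial transcription factors, GRHL2 was 3.59-fold lower over 7 probe sets (run -1.67) and ELF3 2.88-fold lower over 3 (run -1.62). Of 6 repressors of epithelial genes ZEB1 was listed, by 2 probe sets. Their median was 4.25, 4.28 and 4.92 in shERRalpha, against 2.44, 2.51 and 2.21 in shscrambled, a log2 change of 2.09. The run median change was smaller, 0.86. None of the 16 probe sets of the ZEB1 run was lower in shERRalpha.

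**Figure D4:**
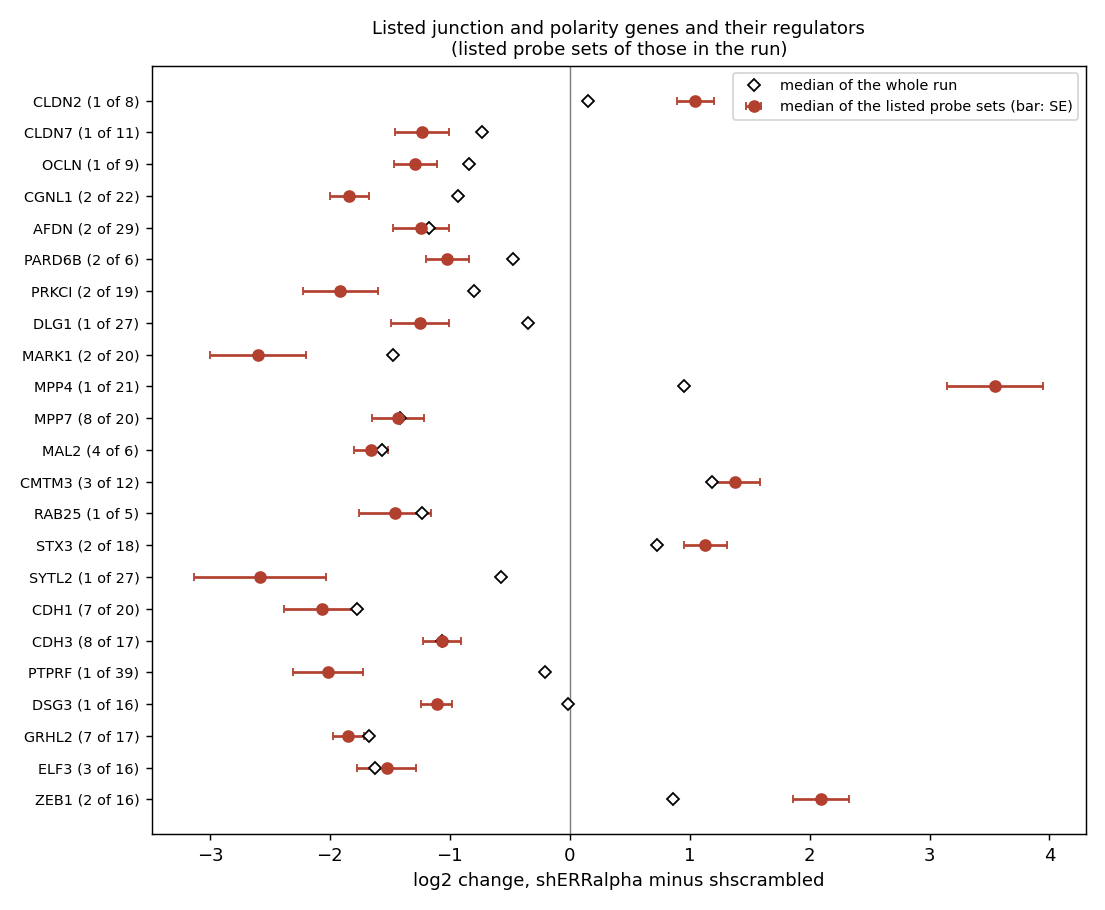
Log2 change, shERRalpha minus shscrambled (horizontal axis), of each listed gene of the junction, polarity, transport and regulator lists. Filled points are the medians of the listed probe sets with their SE (3 arrays a group), open diamonds the medians of the whole run, and the numbers give listed probe sets of those in the run. For MPP7, MAL2, CDH3, GRHL2 and AFDN both summaries lie close together. For PTPRF, DSG3, DLG1 and CLDN2 the run median (-0.20, -0.01, -0.35 and 0.15) lies much nearer to 0 than the listed median. The same holds for SYTL2, MPP4, PRKCI, ZEB1, PARD6B and CGNL1 (-0.58, 0.95, -0.80, 0.86, -0.48 and -0.93). To a lesser degree it holds for others, CLDN7, OCLN and STX3 included.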

How the data were processed

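Total RNA was measured on 6 whole-transcript Affymetrix arrays, grouped by the sample titles. The authors' deposited value table holds 1 log2 value per probe set and array, and the submitters' processing notes name RMA as the method that made it. The sources used here name no software version, annotation or build. Decimal marks are missing from the deposited table, so the log2 values were recovered from digit strings: strings of 7 digits were read as 10 or more and the rest with 1 digit before the mark. For 5.86% of values, which allow either reading, the one nearer to the other arrays was taken. In 159 probe sets every array allowed either, and these were given 1 digit before the mark without such a comparison. Another 1269 probe sets stayed undecided and were left out. The reading met all 2122 deposited fold changes within 0.001 log2 units, which for 12 probe sets follows from the method, since the deposited fold change itself settled their reading. The authors' deposited comparison gives, per the file headers, a ratio (fold change) and an unadjusted p-value. Probe sets were named through its accessions and RefSeq (GRCh38.p14). Values of a gene are medians over probe sets per array, then mean ± SD over arrays, and SE is that of the difference of group means. A run ends at a missing identifier. limma (version 3.58.1, R 4.3.3; lmFit, eBayes, Benjamini-Hochberg) and the equal-variance test of the deposited rule (scipy 1.17.1) were run on all probe sets for the background shares, after tests on simulated data. The members, gene lists and motifs were chosen with earlier results of these data known. The genes named are the 4 members, all listed genes of the lists and, for each member, the 3 nearest genes with at least 3 listed probe sets. Alternatives were leaving out each array, a replicate block, quantile normalisation, inclusion of undecided probe sets, a filter on dim probe sets, array weights, and other summaries over probe sets. The number of arrays limits the precision.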

Additional observations from a re-analysis of the deposited data

How the results depend on the processing

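All 88 alternative values of the listed and run changes of the 4 genes stayed below 0, and 83 of them moved by less than the spread between replicates. This says little about stability, since the genes were listed for their difference on these arrays. The run change of CLDN7, -0.73, became -0.97 when probe sets were averaged, -1.10 as the median of the probe set changes and -0.94 without dim probe sets, and that of MAL2, -1.57, became -1.21 and -1.40 with the first 2 of these. Leaving out 1 array at a time gave CLDN7 -1.41 to -1.12 (listed) and -0.82 to -0.59 (run), OCLN -1.38 to -1.11 and -1.08 to -0.65, MPP7 -1.58 to -1.28 and -1.54 to -1.20, and MAL2 -1.78 to -1.55 and -1.68 to -1.47. Over the whole table the rule of the deposited comparison selected 775 to 1705 lower and 513 to 906 higher when 1 array was left out, against 1427 and 695 with all. With the replicate number as a block it gave 675 lower and 392 higher. Same-numbered arrays correlated at 0.068, 0.048 and 0.084 in their deviations from the group means, each best with its own number. Deviations within a group are tied to each other by its mean, so these correlations are not independent. The labels do not say that same-numbered arrays were handled together, and shared handling was not tested. limma called 0 probe sets in every alternative run, the block and array weights included. Group and replicate spread rest on 3 arrays each, and dim signals limit the folds of ESRRA, CGNL1, CLDN2, MPP4, PTPRF, ZEB1 and DSG3. Some shERRalpha arrays were also under the dim mark for MARK1 (2.20, 2.94 and 2.10) and SYTL2 (2.47, 1.96 and 3.79).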
